A study of Mus musculus with 15 samples.

Results

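The regulators of G-protein signalling (RGS) are a gene family of which 9 members, Rgs13, Rgs1, Rgs2, Rgs3, Rgs10, Rgs14, Rgs16, Rgs18 and Rgs19, were followed here across 15 mouse T cell leukemia lines. They were chosen by name to ask whether the low level of Rgs13 in 1 of the genotypes was shared by its relatives, so the genotype difference of Rgs13 is what led to the choice and is described below without a test. By symbol, 7 of the 9 matched a row of the deposited table of 12545 genes, and Rgs16 and Rgs18 were not analysed here.

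RGS proteins bind the active, GTP-loaded alpha subunit of a heterotrimeric G protein and speed its hydrolysis of GTP, which shortens the signal of a G-protein-coupled receptor. In lymphocytes the best known of these receptors are those for chemokines and for sphingosine-1-phosphate, which guide the movement of cells in and out of the thymus and the lymph nodes. Rgs1, Rgs2, Rgs3, Rgs13, Rgs16 and Rgs18 belong to the subfamily of mostly small proteins with little beyond the RGS domain, while Rgs10, Rgs14 and Rgs19 belong to other subfamilies.

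RNA-sequencing was performed on 8 DKO and 7 E2a-/- lines, with 1 library per line and no treatment. All 15 lines were grown from the thymus of FVB/NJ mice lacking E2a, the gene for the E proteins E12 and E47 that start and guide T cell development. The DKO lines were in addition homozygous for a floxed allele of Lef1, which encodes a partner of beta-catenin on DNA, and carried a Cre transgene driven by the T lineage promoter of Lck, so their genotype was E2a-/- LefF/F LckCre+. Each line was established by culture of thymic cells of a moribund mouse, and the labels do not say which lines, if any, came from the same animal, so the p-values measure the spread between lines only.

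Reads on the listed genes numbered 4847970 in DKO79.9, the shallowest line, to 21681586 in SKO95, the deepest, and levels are given in CPM, the reads of a gene scaled to the same sum of gene-assigned reads for every line. All 13 T lineage markers were listed, with a summed level of 3929 to 5386 CPM among DKO lines and 2840 to 5972 CPM among E2a-/- lines. Lef1 was at 140 ± 37.1 CPM over 8 DKO and 928 ± 478 CPM over 7 E2a-/- lines (mean ± SD), but the library labelled SKO132 had 59.0 CPM, less than any DKO line, and members that rest on it are given with and without it. The table holds 1 value per gene, so deleted and remaining exons of Lef1 and of Tcf3, the E2a gene, cannot be told apart, and Tcf3 was at 168 ± 33.8 and 175 ± 32.5 CPM. SKO156.6 and SKO186.5 were the most alike of the 105 pairs of lines (Spearman's correlation of 0.987 across genes), followed by SKO115.2 and SKO163.5 (0.969), although both pairs differed by more than the sampling of reads. Depth limits the low members, as 3 reads, taken as the smallest amount told apart from 0, are worth 0.138 CPM in SKO95 and 0.618 CPM in DKO79.9.

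Rgs13, Rgs2 and Rgs1 are listed next to each other on the minus strand of chromosome 1. The table places Rgs2 at 145846468 to 145851291, Rgs13 at 145985797 to 146024502 and Rgs1 at 146091102 to 146096372, in coordinates that are not those of GRCm38. RefSeq promoters of build GRCm38.p6 matched 6 of the 9 members by symbol. The 250 bases before the start of Rgs13 and of Rgs2 are shown because these neighbours had the largest genotype differences of the members, and capitals mark matches of CANNTG, the E-box that E proteins bind. Rgs13 lies at chr1:144177373-144177622 and Rgs2 at chr1:144004150-144004399, both on the minus strand and both printed 5′ to 3′ along the gene:
Rgs13: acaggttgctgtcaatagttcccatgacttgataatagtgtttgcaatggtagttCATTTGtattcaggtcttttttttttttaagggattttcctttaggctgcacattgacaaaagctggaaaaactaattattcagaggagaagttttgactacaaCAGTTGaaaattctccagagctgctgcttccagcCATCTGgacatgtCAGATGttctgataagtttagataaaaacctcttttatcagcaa
Rgs2: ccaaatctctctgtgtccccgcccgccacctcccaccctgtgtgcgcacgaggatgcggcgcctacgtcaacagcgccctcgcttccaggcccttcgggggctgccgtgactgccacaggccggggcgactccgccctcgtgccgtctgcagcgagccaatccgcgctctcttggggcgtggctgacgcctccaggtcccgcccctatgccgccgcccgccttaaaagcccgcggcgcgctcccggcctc
The 2 windows have little in common in composition. That of Rgs13 is 36.0% G and C, more than only 5.81% of the 32851 RefSeq promoters, while that of Rgs2 is 72.4%, more than 93.6% of them. Rgs13 holds 4 matches of CANNTG, which reads as itself on the other strand, at 195, 91, 57 and 44 bases before the start, and 3.84% of promoters hold at least as many. Rgs2 holds none, whereas 66.2% of promoters hold 1 or more. CTTTGA and CTTTGT, core letters of the sequence that LEF1 and its relatives bind, were searched on both strands and match neither window, against 13.8% and 16.5% of all promoters. With neither of them present, no overlap between the motifs was possible in these windows. Of the other matched members, both windows of Rgs3 hold CTTTGT, and the windows of Rgs10, Rgs16 and Rgs19 hold neither of these letters.

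Rgs13, known from germinal center B cells and mast cells as a brake on chemokine and IgE receptor signals, was the member with the least RNA in DKO lines next to Rgs1. In DKO lines it was at 0 CPM at the lowest, 0.381 CPM at the median and 1.22 CPM at the highest, with 0 reads in DKO241 and DKO713, 1 in DKO102.4 and 3 in DKO79.9. In E2a-/- lines it was at 2.43 CPM at the lowest, 3.81 CPM at the median and 70.6 CPM at the highest, on 39 to 1224 reads. The groups did not overlap, each of the 8 DKO lines being below all 7 E2a-/- lines, as was the case for 0.112% of all genes, and since this contrast led to the choice of the gene nothing further is read from it.

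The mean of Rgs13 was 0.467 ± 0.479 CPM over 8 DKO and 21.1 ± 29.7 CPM over 7 E2a-/- lines (mean ± SD), a difference of -2.83 (SE 0.64) in the mean of log2(CPM + 1), a scale that understates the change of low genes. Without the library labelled SKO132, where Rgs13 was at 3.81 CPM, the difference was -3.01. In bulk RNA, fewer cells expressing a gene and less RNA per cell cannot be told apart.

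Within the E2a-/- lines Rgs13 fell into a low and a high range. SKO156.6 had 70.6 CPM and SKO186.5 had 58.0 CPM, and this pair of alike lines held 86.0% of the reads of Rgs13 in the group. In the remaining 5 E2a-/- lines its level was 2.43 to 6.13 CPM, with a mean of 3.86 ± 1.38 CPM (SD, n = 5), which is 8.27 times the DKO mean. The size of the mean in E2a-/- lines thus depended on that pair, while the order of the groups did not. The spread of Rgs13 within the genotypes, as the pooled SD of log2(CPM + 1), was above that of 92.2% of genes.

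**Figure D1:**
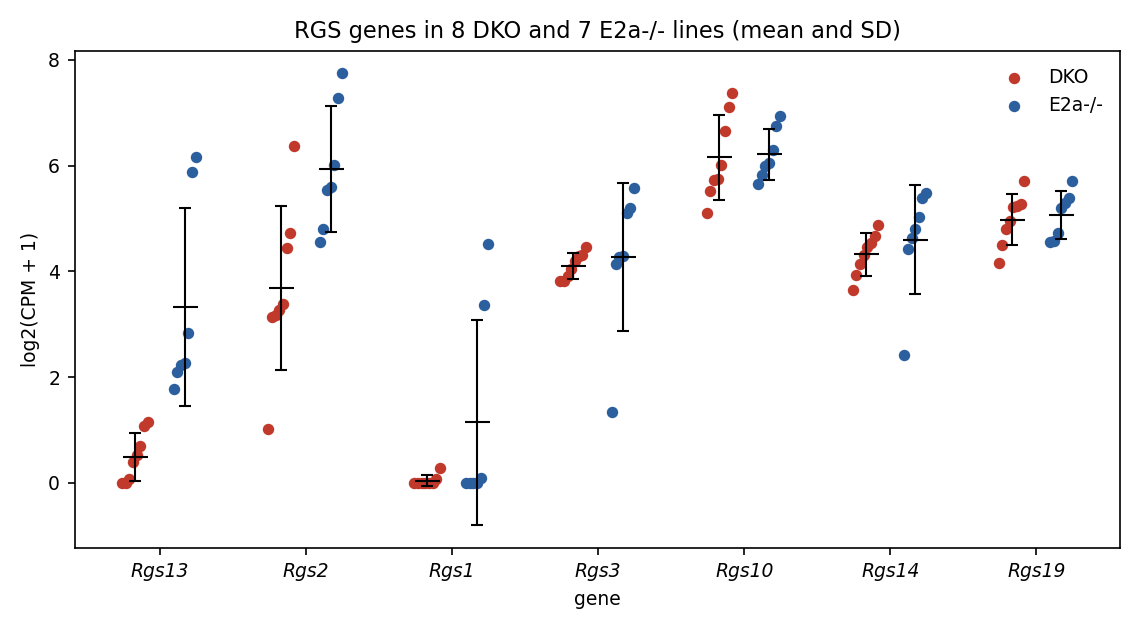
Each point is 1 line, with the level of a gene as log2(CPM + 1) on the vertical axis, DKO lines in red and E2a-/- lines in blue, and bars for the mean and SD of 8 and 7 lines. Only Rgs13 among the 7 genes has groups that do not overlap, and single lines stand apart for Rgs2 (DKO79.9 at 82.0 CPM), Rgs3 and Rgs14 (the library labelled SKO132 at 1.54 and 4.36 CPM).

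Because Rgs13 is known from B cells and mast cells, markers of both were read beside it. Of 7 B cell markers Blnk alone matched a row, and it was at 0.345 CPM in SKO156.6 and 0.142 CPM in SKO186.5, the lowest levels of the 15 lines, with a range of 0.483 to 6.54 CPM among DKO and 0.142 to 3.92 CPM among E2a-/- lines. Of 6 mast cell markers Cpa3 and Kit matched, and their sum ranged from 2.61 to 224 CPM among DKO and from 0.373 to 173 CPM among E2a-/- lines. The highest level of Kit, 173 CPM, was in DKO79.9, a line with 3 reads of Rgs13. Kit encodes CD117, which the authors also stained on thymocytes without lineage markers, so it is not particular to mast cells here. Cpa3 was at 17.4 CPM in SKO156.6 and 37.8 CPM in SKO186.5. Its range was 0.531 to 50.7 CPM among DKO and 0.249 to 69.2 CPM among E2a-/- lines. Neither list was highest in the pair of lines with the most Rgs13. Of 10 stromal and epithelial markers 4 matched. Pdgfrb was at 299 CPM in SKO156.6 and 407 CPM in SKO186.5. It was at 14.5 to 128 CPM in the remaining E2a-/- lines, and at 411 CPM in DKO79.9. In the same pair Col1a2 was at 277.9 and 171.8 CPM, against 1.84 to 221.9 CPM in the remaining E2a-/- lines. Pecam1 was at 95.6 and 112.6 CPM, against 50.7 to 157.4 CPM, and Epcam at 0.138 and 0.190 CPM, against 0 to 8.24 CPM. Of the 4, only Pdgfrb was above the remaining E2a-/- lines in both lines of the pair. The part of these markers in the level of Rgs13 was not tested.

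Rgs2 acts mainly on the G alpha q class and is induced in activated T cells. It was the only member tested with an unadjusted limma p under 0.05 when all 15 lines were kept. Its level in DKO lines was 1.01 CPM at the lowest, 9.03 CPM at the median and 82.0 CPM at the highest. In E2a-/- lines it was 22.6 CPM at the lowest, 47.3 CPM at the median and 213 CPM at the highest. The groups overlapped through 2 DKO lines: 6 of the 8 were below every E2a-/- line, DKO192.3 at 25.6 CPM was above 1 of them, and DKO79.9 was above all but SKO115.2 and SKO163.5.

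The means of Rgs2 were 20.4 ± 26.1 CPM over 8 DKO and 81.8 ± 72.8 CPM over 7 E2a-/- lines (mean ± SD). The difference was -2.24 (SE 0.67) in log2(CPM + 1), with a limma p of 0.00424 that was 0.232 after Benjamini-Hochberg adjustment over all 12545 genes, and so did not pass the threshold of 0.01. Of all genes, 5.83% had an unadjusted p under 0.05 in the same direction. DKO79.9 set much of the spread: without it the DKO mean was 11.6 ± 8.49 CPM (SD, n = 7), the highest DKO line was at 25.6 CPM, and the difference was -2.63 (SE 0.59, limma adjusted p = 0.0695). Without the library labelled SKO132, where Rgs2 was at 27.0 CPM, the difference was -2.43 (limma adjusted p = 0.137). Over 27 alternatives the adjusted p ranged from 0.0402 to 0.595.

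Rgs1, a brake on chemokine receptor signals in B cells and in T cells resident in tissues, was close to 0 in most lines of both genotypes. It was at 0 in 6 of the 8 DKO lines, with 1 read in DKO102.4 and 1 read in DKO79.9. It was also at 0 in 4 of the 7 E2a-/- lines and had 1 read in SKO156.6. Its RNA was found above 3 reads in SKO115.2, at 22.0 CPM (424 reads), and in SKO163.5, at 9.30 CPM (173 reads), and in no other line. Both genotypes therefore had a median of 0, and the means of 0.0319 ± 0.0724 CPM (SD, n = 8) and 4.48 ± 8.46 CPM (SD, n = 7) differ through those 2 alike lines. The difference was -1.10 (SE 0.64) in log2(CPM + 1), with a limma adjusted p of 0.577. On whole reads recovered from the CPM values, edgeR's likelihood ratio test called Rgs1 (adjusted p = 0.00965), where it called 0.717% of all genes lower in DKO. Neither edgeR's quasi-likelihood test (adjusted p = 0.152) nor DESeq2 (adjusted p = 0.0427) called it. The unadjusted p of Rgs1 was 0.000118 with the likelihood ratio test, 0.00195 with the quasi-likelihood test and 0.00112 with DESeq2.

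The lines with the most Rgs13 were thus not those with the most Rgs1 and Rgs2, although the genes are neighbours. SKO156.6 and SKO186.5 had 1 read and 0 reads of Rgs1, and Rgs2 at 63.4 and 47.3 CPM. SKO115.2 and SKO163.5 had Rgs13 at 3.27 and 6.13 CPM, and Rgs2 at 213 and 153 CPM. Spearman's correlation between Rgs13 and Rgs2 over the 15 lines was 0.749, a description only, since the genotypes and the alike pairs enter it.

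The other genes listed within 1 Mb of Rgs13 were also read, to see the levels along the chromosome. Cdc73, Glrx2, Trove2 and Uchl5 differed between DKO and E2a-/- lines by 0.0011, 0.14, -0.37 and 0.098 in log2(CPM + 1), with limma adjusted p values of 0.999, 0.781, 0.767 and 0.765. Cdc73, a subunit of the polymerase-associated factor complex, had medians of 85.1 and 79.2 CPM, and Uchl5, a deubiquitinase, had medians of 119 and 111 CPM. Chromosome 1 as a whole stood 0.27 above the other autosomes on the log2 scale in DKO548, against -0.079 to 0.034 in the other lines, and Rgs13 was at 1.09 CPM and Rgs2 at 7.76 CPM in that line.

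**Figure D2:**
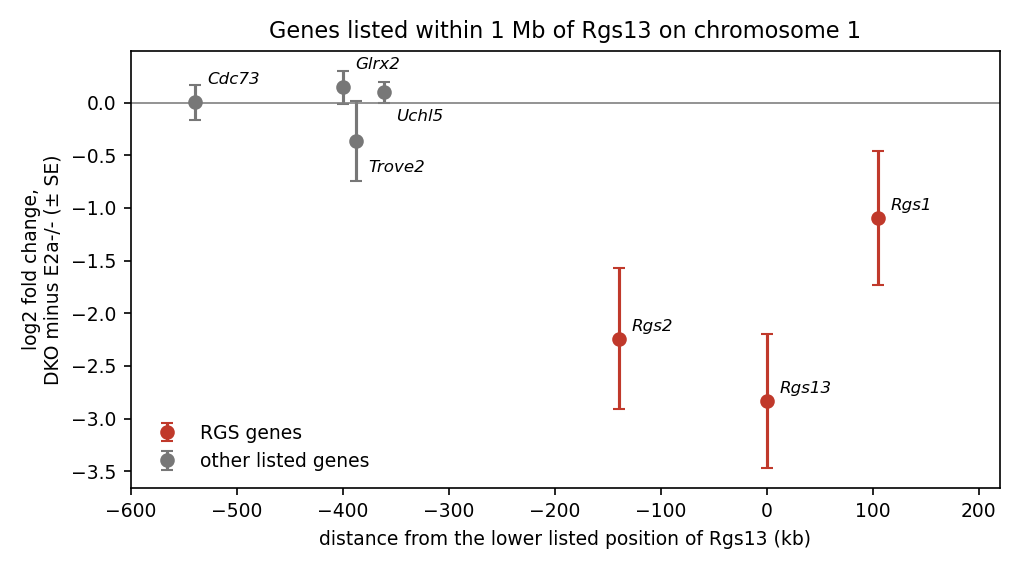
The horizontal axis is the distance in kb from the lower listed position of Rgs13 on chromosome 1, and the vertical axis the log2 fold change, DKO minus E2a-/-, on the log2(CPM + 1) scale with its SE. The 3 RGS genes are at -2.24, -2.83 and -1.10 and the 4 other genes between -0.37 and 0.14, and Rgs13 itself was chosen for its difference.

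Rgs3, which acts on the G alpha i and q classes, had a narrow range in DKO lines and a wide one in E2a-/- lines. The DKO lines ranged from 13.1 to 20.9 CPM with a median of 16.4 CPM, a 1.59-fold range. The E2a-/- lines ranged from 1.54 CPM in the library labelled SKO132 over a median of 18.5 CPM to 46.9 CPM in SKO115.2. The groups overlapped widely, with means of 16.4 ± 2.94 CPM (SD, n = 8) and 24.4 ± 15.1 CPM (SD, n = 7) and a difference of -0.17 (SE 0.47, limma adjusted p = 0.928) in log2(CPM + 1).

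Rgs14, a scaffold that binds both G alpha i and Ras, showed the same order of lines at its extremes. DKO lines ranged from 11.5 CPM over a median of 19.97 CPM to 28.4 CPM, and E2a-/- lines from 4.36 CPM in the library labelled SKO132 over 26.8 CPM to 43.9 CPM in SKO115.2. The means were 19.7 ± 5.52 CPM (SD, n = 8) and 27.4 ± 13.3 CPM (SD, n = 7), a difference of -0.27 (SE 0.37, limma adjusted p = 0.832) in log2(CPM + 1).

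Both differences were larger without the library labelled SKO132, whose Lef1 level went against its label. Without it the E2a-/- mean of Rgs3 was 28.2 ± 12.3 CPM (SD, n = 6), from 16.6 to 46.9 CPM, and the difference was -0.66 (SE 0.23, limma adjusted p = 0.239). Without it the E2a-/- mean of Rgs14 was 31.2 ± 9.48 CPM (SD, n = 6), from 20.4 to 43.9 CPM, and the difference was -0.64 (SE 0.22, limma adjusted p = 0.229). The unadjusted limma p was then 0.0119 for Rgs3 and 0.0107 for Rgs14, under 0.05 for both. In each case 4 DKO lines were below every other E2a-/- line, and neither gene passed the threshold. That library was the lowest of the 15 for 8.79% of all genes, and for 2 of the 7 members. With it kept, both differences shrank without SKO115.2, to 0.049 for Rgs3 and -0.12 for Rgs14. With both alike pairs of lines averaged they were 0.026 and -0.12.

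Rgs10, a small regulator of G alpha i that lymphocytes and macrophages express at high levels, did not separate the genotypes. DKO lines ranged from 33.5 CPM in DKOTu3 over a median of 58.2 CPM to 164.5 CPM in DKO170.2, and E2a-/- lines from 49.1 over 65.5 to 121 CPM. The 2 highest and the 2 lowest DKO lines lay outside the range of the E2a-/- lines on either side, and the difference was -0.052 (SE 0.32, limma adjusted p = 0.972) in log2(CPM + 1), with a sign that turned under 11 alternatives.

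Rgs19, first described as a partner of G alpha i3, was the least variable member over all 15 lines. DKO lines ranged from 16.7 over a median of 32.9 to 51.3 CPM, and E2a-/- lines from 22.4 over 35.9 to 51.5 CPM. The means of 32.1 ± 10.8 CPM (SD, n = 8) and 33.8 ± 10.9 CPM (SD, n = 7) differed by -0.082 (SE 0.23, limma adjusted p = 0.930) in log2(CPM + 1). The highest level was 3.08 times the lowest, against 4.91 times for Rgs10, 10.1 times for Rgs14, 30.4 times for Rgs3 and 210 times for Rgs2.

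Per kb of the union of annotated exons (GENCODE M21), Rgs10 had the highest level of the members in both genotypes, with a median of 34.0 CPM per kb in DKO and 38.3 CPM per kb in E2a-/- lines. Rgs19 followed at 14.8 and 16.1 CPM per kb. Rgs14 was at 4.71 and 6.32, Rgs3 at 1.52 and 1.71, and Rgs13 at 0.230 and 2.30 CPM per kb. Rgs2 had 2.49 CPM per kb in DKO and 13.03 CPM per kb in E2a-/- lines, so it ranked above Rgs14 in E2a-/- lines and below it in DKO lines, and Rgs1 had a median of 0 in both.

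Taking the 6 members other than Rgs13, 0 of 6 passed the limma threshold of 0.01. Of all genes 0.0478% passed (6 of 12545), or 0.0239% counting only genes lower in DKO. With limma, 1 of 6 (Rgs2) had an unadjusted p under 0.05, against 10.2% of all genes. Without the library labelled SKO132 that count was 3 of 6 (Rgs2, Rgs3 and Rgs14), against 12.2% of all genes. That count takes alike lines as separate ones. With both alike pairs averaged and SKO132 kept, the unadjusted limma p was 0.020 for Rgs2, 0.96 for Rgs3 and 0.78 for Rgs14. All 7 members had a lower mean log2(CPM + 1) in DKO lines, as did 53.7% of all genes, and the sign of Rgs3, Rgs10 and Rgs19 turned under some alternatives. The median difference of the 6 members was -0.22, against -0.019 for all genes, and without that library it was -0.65, against -0.0078 for all genes. Without the library labelled SKO132 the differences of Rgs1, Rgs10 and Rgs19 were -1.29, -0.078 and -0.045, and 0 of 6 members passed.

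**Figure D3:**
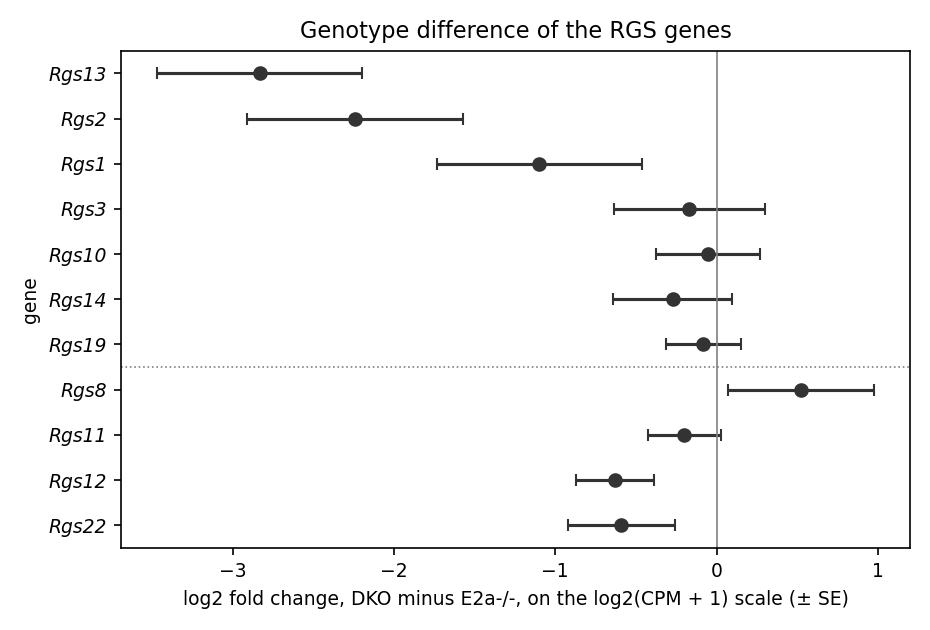
The log2 fold change, DKO minus E2a-/-, on the log2(CPM + 1) scale is on the horizontal axis with its SE as bars, for the 7 members above the dotted line and 4 other family genes below it. Rgs13 (-2.83) and Rgs2 (-2.24) lie farthest from 0, while Rgs3, Rgs10, Rgs14 and Rgs19 lie between -0.27 and -0.052.

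A second pattern ran across lines rather than genotypes. SKO115.2 was the highest of the 15 lines, with SKO163.5 ranked 2 or 3, for Rgs1, Rgs2, Rgs3, Rgs14 and Rgs19, which is 5 of the 7 members, against 5.40% of all genes. These lines are alike across all genes and were picked after their values were seen, so the count is a description. For Rgs10 they ranked 6 and 10, and for Rgs13 they ranked 6 and 3. SKO156.6 and SKO186.5 were the highest for Rgs13 and for no other member, against 1.95% of all genes. DKO79.9 ranked 2 for Rgs10 and Rgs19 and 3 for Rgs2 and for Rgs1, where it had a single read. Of the stromal and epithelial markers, Pecam1 and Epcam were highest in the same 3 lines. No line had less than 44.9 CPM of Pecam1, so its presence is not particular to them. Pecam1 was at 157.4 CPM in SKO115.2, 142 CPM in SKO163.5 and 129 CPM in DKO79.9, and Epcam at 8.24, 3.33 and 3.503 CPM. The remaining matched markers did not share this order. In the same lines Col1a2 was at 22.4, 116 and 414 CPM and Pdgfrb at 33.9, 128 and 411 CPM. Col1a2 reached 947 CPM in DKO192.3, and Pdgfrb 407 CPM in SKO186.5. The part of these markers in the levels of the RGS genes was not tested.

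**Figure D4:**
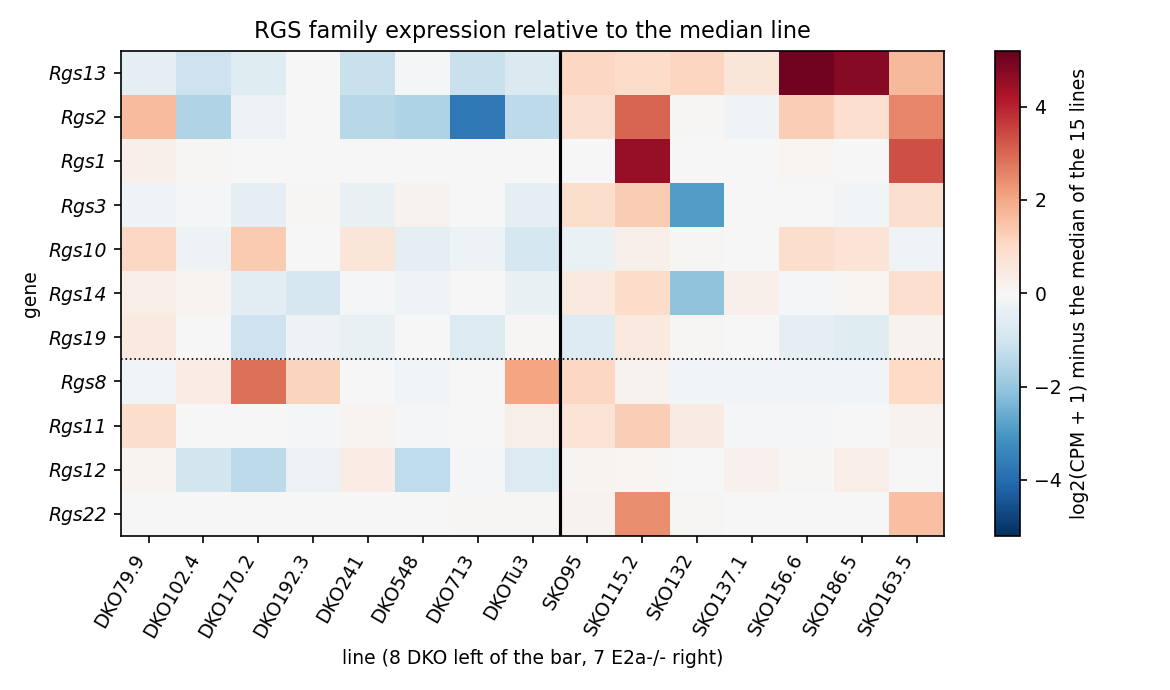
Each cell shows log2(CPM + 1) of a gene (rows) in a line (columns) minus the median of the 15 lines, red for higher and blue for lower, with 8 DKO lines left of the black bar, 7 E2a-/- lines right of it, and 4 family genes that are no members below the dotted line. Rgs13 is highest in SKO156.6 and SKO186.5 (70.6 and 58.0 CPM), whereas Rgs1, Rgs2 and Rgs22 are highest in SKO115.2 and SKO163.5.

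Of 14 further family genes, 4 matched a row, and none was called in DKO against E2a-/- lines. Rgs12, a large scaffold of the same subfamily as Rgs10 and Rgs14, was at 41.0 ± 18.5 CPM over 8 DKO and 58.8 ± 5.86 CPM over 7 E2a-/- lines (mean ± SD). In DKO it ranged from 20.7 to 69.9 CPM and in E2a-/- lines from 52.5 to 69.4 CPM, with 6 of 8 DKO lines below every E2a-/- line and DKO241 above all of them. Its difference was -0.63 (SE 0.24, limma adjusted p = 0.386) in log2(CPM + 1). The table lists Rgs12 on chromosome 5, which stood 0.41 above the other autosomes on the log2 scale in DKO241 and between -0.062 and 0.016 in the other lines, and without DKO241 the difference was -0.76 (SE 0.22, limma adjusted p = 0.263). Part of the exons of Rgs12 lies opposite another annotated gene, and whether reads were counted by strand is not given in the sources used here.

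Rgs22 repeated the pattern of Rgs1, at 4.41 CPM in SKO115.2, 1.94 CPM in SKO163.5 and no more than 0.138 CPM elsewhere, with a difference of -0.59 (limma adjusted p = 0.569). Rgs8 was the family gene with the opposite sign, 0.52 (limma adjusted p = 0.718), and its highest levels were 6.96 CPM in DKO170.2 and 3.63 CPM in DKOTu3. Rgs11 did not exceed 1.55 CPM.

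Of the 9 proteins with a related RGS-homology domain, all were listed, 5 lower and 4 higher in DKO lines, and none passed the limma threshold. Axin2, a scaffold of the beta-catenin destruction complex and a well-known target of that pathway, was at 185.6 ± 68.2 CPM over 8 DKO and 59.2 ± 28.4 CPM over 7 E2a-/- lines (mean ± SD). Its difference was 1.73 (SE 0.37, limma adjusted p = 0.0832) in log2(CPM + 1), and 7 of 8 DKO lines were above every E2a-/- line. On recovered reads it was called by edgeR's likelihood ratio test (adjusted p = 0.000203) and by DESeq2 (adjusted p = 0.000586) and not by edgeR's quasi-likelihood test (adjusted p = 0.105), tests that called 1.24%, 1.41% and 0.00797% of all genes in either direction.

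The G proteins on which the RGS members act were read next. Of 15 G alpha genes 9 were listed, 6 lower and 3 higher, and none had an unadjusted p under 0.05. Gnai2, the main G alpha i of lymphocytes, was at 324 ± 60.5 CPM over 8 DKO and 311 ± 33.0 CPM over 7 E2a-/- lines (mean ± SD). Gnai3 was at 332 ± 97.5 and 338 ± 84.9 CPM, and Gna13 at 181 ± 43.9 and 187.0 ± 12.5 CPM. Gnas, the stimulator of adenylyl cyclase, was at 507 ± 126 and 400 ± 229 CPM, with SKO137.1 at 30.5 CPM (limma adjusted p = 0.652). Gnaq, a partner of Rgs2, was low, with medians of 0.101 and 0.684 CPM and a difference of -0.91 (limma adjusted p = 0.566). Gna11, of the same G alpha q class, was not low, with medians of 26.7 CPM in DKO and 27.1 CPM in E2a-/- lines. It ranged from 22.8 to 34.0 CPM among DKO and from 22.3 to 32.6 CPM among E2a-/- lines. The difference of Gna11 was -0.025 in log2(CPM + 1) (limma adjusted p = 0.963). Gnat2, the cone transducin, had medians of 2.36 and 0.901 CPM (limma adjusted p = 0.581).

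Of 15 G beta and gamma genes 10 were listed, 5 in each direction, with 1 lower at an unadjusted p under 0.05. This was Gng12, with medians of 3.94 CPM in DKO and 28.4 CPM in E2a-/- lines and a difference of -1.92 (SE 0.86, limma adjusted p = 0.463). Gnb5 and Gng10 came next, with differences of 0.91 and -0.24 (limma adjusted p = 0.573 and 0.587). Of 10 receptor kinases and arrestins, which switch receptors off upstream of the G protein, 7 were listed, 5 lower and 2 higher, and none had an unadjusted p under 0.05. Grk2, which phosphorylates active receptors, was at 295 ± 33.6 CPM over 8 DKO and 328 ± 65.2 CPM over 7 E2a-/- lines (mean ± SD) (limma adjusted p = 0.706), and Grk4 and Grk5 had adjusted p values of 0.713 and 0.847.

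Of 20 receptors of lymphocytes 17 were listed, 11 lower and 6 higher in DKO lines, none called, and 2 lower and 1 higher at an unadjusted p under 0.05. The sphingosine-1-phosphate receptor S1pr4 had medians of 0.136 and 1.19 CPM and a difference of -0.96 (limma adjusted p = 0.327). Of the DKO lines, 7 of 8 were below every E2a-/- line. Depth limits that count, as the DKO median was under 0.138 CPM, the least that 3 reads are worth in any line. The chemokine receptor Cxcr6 had medians of 0.765 and 2.75 CPM and a difference of -1.10 (limma adjusted p = 0.353). The prostaglandin E receptor Ptger4 had medians of 48.5 and 27.7 CPM and a difference of 0.89 (limma adjusted p = 0.386).

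Cxcr4, the receptor for the chemokine CXCL12, was at 261 ± 56.2 CPM (SD, n = 8) and 250 ± 92.5 CPM (SD, n = 7). The thymus homing receptor Ccr9 was at 49.4 ± 84.9 CPM over 8 DKO and 203 ± 266 CPM over 7 E2a-/- lines (mean ± SD), a difference of -1.90 (limma adjusted p = 0.559). It reached 703 CPM in SKO115.2, 447 CPM in SKO163.5 and 255 CPM in DKO79.9, which are also the lines with the most Rgs2.

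Of 16 effectors and other modulators 12 were listed, 10 lower and 2 higher, and none had an unadjusted p under 0.05. Gpsm1, a receptor-independent activator of G alpha i signals, had medians of 52.9 and 111 CPM and a difference of -0.90 (limma adjusted p = 0.520). The adenylyl cyclase Adcy7 and the phospholipase Plcb2 differed by -0.54 and 0.35 (limma adjusted p = 0.554 and 0.680). Over the 6 pathway lists together, 64 of 85 genes were listed. Of these, 42 had a lower and 22 a higher mean log2 level in DKO lines, while 53.7% of all genes were lower. With limma 0 passed the threshold, and 3 were lower and 2 higher at an unadjusted p under 0.05, against 5.83% and 4.33% of all genes.

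**Figure D5:**
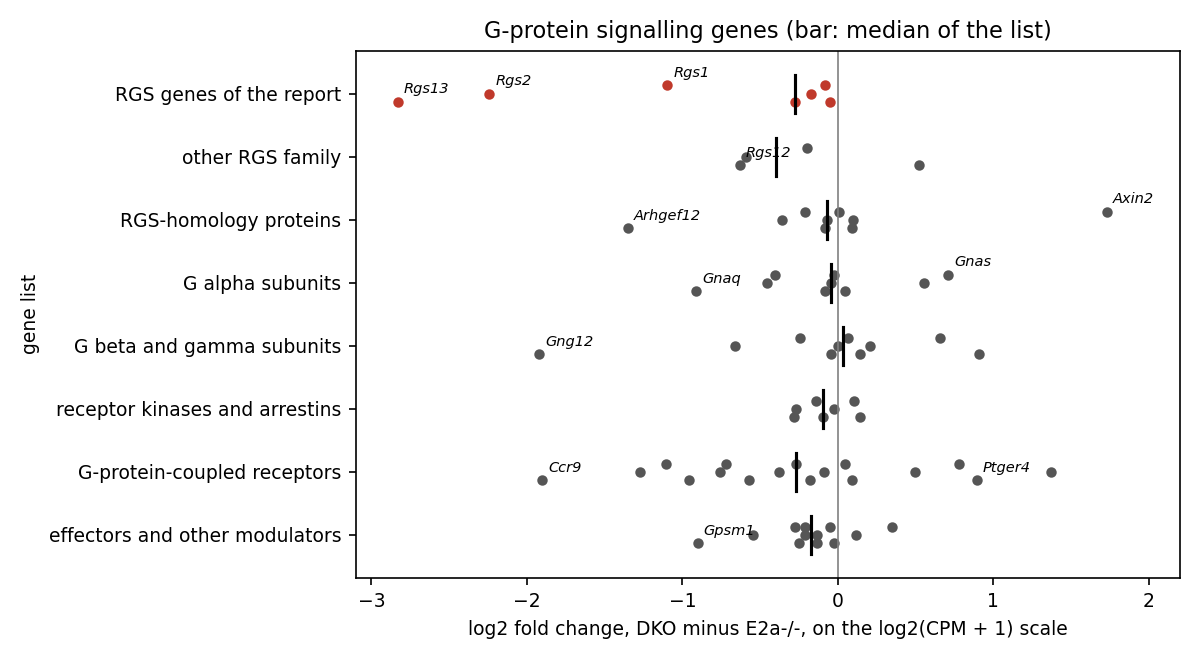
Each point is a gene, placed by its log2 fold change, DKO minus E2a-/-, on the log2(CPM + 1) scale, in rows by gene list, with a bar at the median of the list. The 7 RGS members are in red, with Rgs13, Rgs2 and Rgs1 at -2.83, -2.24 and -1.10, and Axin2 at 1.73 and Gng12 at -1.92 lie at the edges of the other lists.

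The genes whose order over the 15 lines was most like that of Rgs13, out of the 11566 genes averaging 1 CPM or more, were Gpc5, Gpr83, Gbe1, Gm17018 and Mynn, with Spearman's correlation of 0.919, 0.899, 0.854, 0.849 and 0.849. These values describe the likeness over lines that share genotypes and close pairs. Gpr83, itself a G-protein-coupled receptor, had a median of 11.1 CPM in DKO lines, with a range of 0.0483 to 20.2 CPM, and a median of 103 CPM in E2a-/- lines, with a range of 25.7 to 149 CPM. Gpc5, a cell surface proteoglycan, was like Rgs13 highest in SKO156.6 and SKO186.5, at 4.76 and 4.65 CPM. Gbe1, the glycogen branching enzyme, had medians of 20.8 and 28.9 CPM, and Mynn, a zinc finger protein, had medians of 29.1 and 34.0 CPM.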

How the data were processed

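The authors trimmed the reads with Trimmomatic 0.33, aligned them to mm10 with TopHat 2.1.0, counted them per gene with htseq-count (HTSeq 0.6.1) and deposited CPM values scaled with edgeR for 12545 genes in 15 lines. How genes were filtered before deposit is not given in the sources used here, and the lowest mean is 0.164 CPM. Gene coordinates are as the table lists them and are not those of GRCm38. Column sums are 996984 to 999289, and 100% are whole multiples of 1 read (tolerance 0.01), so whole reads were recovered for count tests. The table holds no columns of comparisons by the authors.

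The members and gene lists were chosen with earlier results of these data known. From the CPM values, limma 3.58.1 (R 4.3.3) was fitted with a variance trend to log2(CPM + 1) over 8 DKO and 7 E2a-/- lines, 2-sided, with Benjamini-Hochberg adjustment over all genes and a threshold of 0.01. Named genes were the members, genes of the other lists that were called, did not overlap or had the 3 smallest p values of their list, receptors and G alpha genes averaging 100 CPM or more, the 5 genes most like Rgs13 and its neighbours within 1 Mb. The alternatives tried were other pseudocounts (0.1 and 2), genes averaging 1 CPM or more only, no variance trend, array weights, TMM and median-of-ratios scaling, edgeR 4.0.16 and DESeq2 1.42.0 on recovered reads, an adjusted p under 0.05, each line left out, and alike lines averaged (both pairs together was added after seeing the data). Gna11 was named beside Gnaq. Levels per length used GENCODE M21 exons, and promoters came from RefSeq. Each test was first run on simulated counts of unrelated lines, with an equal dispersion for every gene. These data have alike lines and unequal spreads, so that run does not rank the tests here. Of the marker lists, 2 of 9 myeloid markers (sums of 5.81 to 14.0 CPM among DKO and 5.48 to 12.7 CPM among E2a-/- lines), 1 of 6 platelet markers (0.412 to 1.91 and 0.237 to 1.61 CPM) and 4 of 10 stromal and epithelial markers (146 to 1190 and 187 to 692 CPM) matched a row. A result for some of the named genes is not reported here.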

Additional observations from a re-analysis of the deposited data

Results flagged for a closer look

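In 4 of 22 groups of lines, each the values of 1 RGS gene in 1 genotype, the highest line stood far from the others, by a gap over range above 0.526 for 8 lines or 0.568 for 7. Chance flags about 1 in 20 groups of normally distributed values, a rate that need not hold for these low and skewed ones. Rgs2 in DKO lines was 82.0 CPM in DKO79.9, against 1.01 to 25.6 CPM in the others. Rgs1 in E2a-/- lines was 22.0 CPM in SKO115.2, against 0 to 9.30 CPM in the others. Rgs1 in DKO lines was 0.206 CPM in DKO79.9, which is 1 read in the shallowest line, where 1 read is worth more CPM than in any other, against 0 to 0.0489 CPM. Rgs11 in DKO lines was 1.03 CPM in DKO79.9, on 5 reads, against 0 to 0.315 CPM.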

How the results depend on the processing

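For Rgs13, each of the 8 DKO lines was below all 7 E2a-/- lines. Leaving out a line or changing the pseudocount could therefore not turn the sign of its difference. That difference was negative under every alternative that was run, from -5.50 to -2.25. With a pseudocount of 0.1 it was -4.51, with edgeR's quasi-likelihood test -5.49, with its likelihood ratio test -5.49 and with DESeq2 -5.50, and with each line left out it was -3.09 to -2.36. The ratio of the group means, 45.2, was 8.27 without SKO156.6 and SKO186.5, and the cause of the larger values of the count tests was not tested. Of the other members, 1 (Rgs1, -7.34) was called by the likelihood ratio test and 0 under the other alternatives. Of the pathway genes, 1 (Axin2) was called by the likelihood ratio test and 1 by DESeq2. Over all genes, where 6 were called, array weights gave 29, the quasi-likelihood test 1, the likelihood ratio test 155, DESeq2 177, an adjusted p under 0.05 19, and both alike pairs averaged 2. Leaving out each line gave 3 to 17, with 17 without the library labelled SKO132, 10 without DKO79.9, and 3 without DKO170.2, DKO713, SKO137.1 or SKO156.6, and the cause was not tested. Rgs3 turned sign without SKO115.2 (0.049) and with both alike pairs averaged (0.026). Rgs10 turned with the quasi-likelihood test (0.11), the likelihood ratio test (0.078), DESeq2 (0.098), SKO156.6 and SKO186.5 averaged (0.052) and both pairs averaged (0.037), and over each line left out it ran from -0.23 to 0.098. Rgs19 turned with array weights (0.045), and over each line left out it ran from -0.19 to 0.037, while Rgs3 ran from -0.66 to 0.049. Rgs1, Rgs2 and Rgs14 stayed negative under all 27 alternatives. No paired analysis was possible because the labels give the lines no shared replicate numbers. Depth limits Rgs1 and Rgs13, which had no more than 3 reads in 8 and 4 of the DKO lines, and intervals of counting error would not cover the spread between lines.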
